A study of Mus musculus with 2 samples.

Results

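The genes described here encode the enzymes and carriers that pass the electrons of cytosolic NADH into mitochondria: 8 of the 55536 genes in the gene tables. They were chosen by name for their known roles, by a rule that uses no measured value, and each was found by its symbol in the gene table and in both transcript tables of each library. Gpd1 and Gpd2 form the glycerol phosphate shuttle. Mdh1, Got1, Got2, Slc25a11, Slc25a12 and Slc25a13 belong to the malate-aspartate shuttle.

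NAD and NADH do not cross the inner mitochondrial membrane, so NADH made in the cytosol by glycolysis is oxidised back to NAD either by lactate dehydrogenase or through a shuttle. In the glycerol phosphate shuttle, Gpd1 uses cytosolic NADH to reduce dihydroxyacetone phosphate, and Gpd2, an FAD enzyme on the inner membrane, returns the electrons to ubiquinone. In the malate-aspartate shuttle, oxaloacetate is reduced to malate in the cytosol, malate is oxidised inside the mitochondrion, and the carbon returns as aspartate. Fast muscle fibres are known for a strong glycerol phosphate shuttle, and oxidative tissues for the malate-aspartate shuttle.

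Total RNA was sequenced from gastrocnemius, a calf muscle made up mainly of fast fibres in mice, of female B6CASTF1/J hybrid mice aged 36 days. The series has 1 group of 2 libraries, replicate 1 and replicate 2, each from 300 ng of RNA with ERCC spike-in RNAs added. No treatment, genotype or time was compared, and the labels number the samples as biological replicates but leave unsaid whether they are different animals, so part of the difference between libraries may be technical. A single group allows no test of a condition, and no p-value is given. The gene tables summed to 37735687 expected counts in replicate 1 and 40656175 in replicate 2, of which the 8 genes held 0.181% and 0.204%.

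The libraries stood apart in several ways that touch the results. Of all counts, mitochondrial transcripts made up 9.39% in replicate 1 and 17.5% in replicate 2. Slow fibre markers summed to 16.6 TPM (a level per transcript length, scaled to a fixed total) in replicate 1 and to 2885 in replicate 2. Fat cell, red blood cell and Schwann cell markers were higher in replicate 1. All 6 skeletal muscle markers were detected in both, with Acta1, skeletal actin, at 26410 and 21414 TPM. These markers are shared by all skeletal muscles and do not tell which muscle was taken. Copies of 7SL, an abundant small cytoplasmic RNA, took 34.0% of TPM in replicate 1 and 27.7% in replicate 2, which lowers the TPM of other genes. In tissue RNA, fewer cells of a type and less RNA per cell cannot be told apart.

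As levels, 7 of the 8 shuttle genes stood near the top of the muscle transcriptome and Slc25a13 stood near 0. Among the 9955 protein-coding genes at 1 TPM or more in both libraries, whose median level was 7.38 TPM, the 7 ranked between 167 for Gpd1 and 451 for Slc25a11. By mean level in the gene table the order was Gpd1, Mdh1, Slc25a12, Got2, Got1, Gpd2 and Slc25a11, from 259 TPM to 106 TPM. Neighbours in this order differed by less than the larger of their SDs between the libraries. Gpd1 was the highest of the 8 in replicate 1 and Mdh1 in replicate 2, but in the reads-based table Gpd1 was also the highest in replicate 2, at 295 TPM against 277 for Mdh1. The order below Gpd1 depended on the table too. With all reads on the principal coding transcript, Slc25a12 had the lowest mean of the 7, at 62.4 TPM, and in the reads-based table Gpd2 did. With mitochondrial, 7SL and spike-in rows left out of the total, Gpd1 stood at 540.5 and 429 TPM and Slc25a13 at 0.073 and 0.63.

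**Figure D1:**
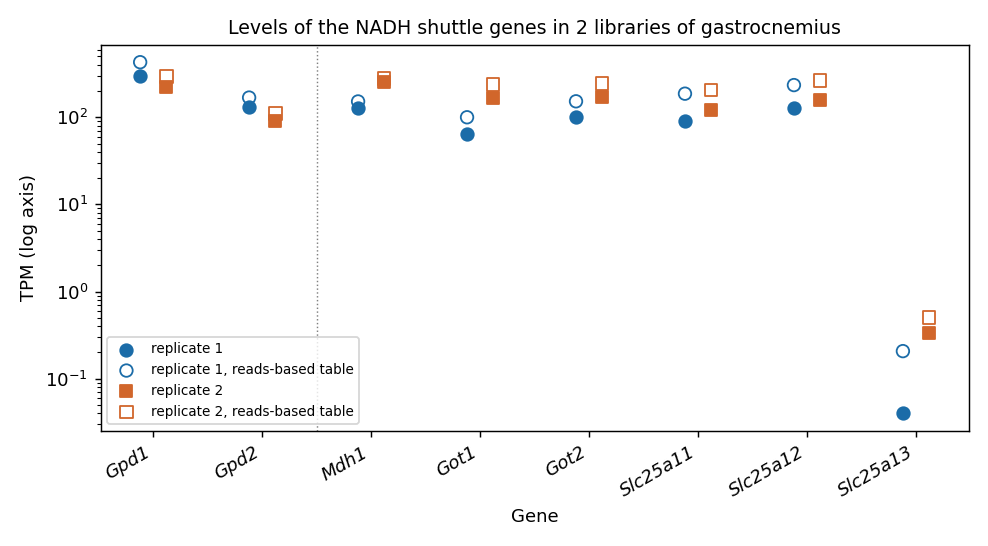
Level of each shuttle gene in TPM on a log axis, with circles for replicate 1 and squares for replicate 2. Filled symbols are the gene table, open symbols the sum over transcripts in the reads-based table, and the dotted line separates the 2 glycerol phosphate genes from the 6 malate-aspartate genes. The first 7 genes lie between 64.8 and 296 TPM in the gene table, and Slc25a13 lies at 0.04 and 0.33.

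The glycerol phosphate pair was abundant in both libraries and somewhat higher in replicate 1. Gpd1 (ENSMUSG00000023019.12, mm10 chr15:99717515-99725005, plus strand), the cytosolic enzyme, stood at 296 TPM in replicate 1 and 223 in replicate 2, from 24740 and 19707 counts. Its mean was 259 ± 51.5 TPM (SD, n = 2). After TMM scaling, which sets the libraries to a common level from the bulk of genes, its count was 1.32-fold higher in replicate 1 (95% exact counting interval 1.29 to 1.34). Intervals of this kind cover counting error only. The reads on Gpd1 were almost all placed on 1 transcript, Gpd1-201, with 99.1% of the gene's TPM.

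Gpd2 (ENSMUSG00000026827.12, chr2:57237635-57370719, plus strand), the mitochondrial partner, stood at 131 TPM in replicate 1 and 91.7 in replicate 2, from 12514 and 9069 counts. Its mean was 112 ± 28.2 TPM (SD, n = 2). Its scaled count was 1.45-fold higher in replicate 1 (1.41 to 1.49). Both enzymes of this shuttle were therefore higher in replicate 1 by less than 1.5-fold. When the libraries were scaled on the spike-in total instead, the log2 ratio of replicate 2 over replicate 1 was -0.01 for Gpd1 and -0.14 for Gpd2, while the median of 9996 genes moved from -0.01 to 0.38. Another scaling shifts all well-counted genes by nearly the same amount, so both genes stayed below that median by construction.

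Gpd2 is annotated with 7 transcripts, and its level per length depended on which of them the reads were given to. The joins below tell its first exons apart and are shown because the tables disagreed on them. Each is 15 bases of a first exon in lower case followed by the first 15 bases of the shared exon at chr2:57267973-57268082 in capitals, in GENCODE M21 sequence, 5′ to 3′.
Gpd2-207 and Gpd2-204, upstream first exon: gcgacgggtgatcagGCTGAGCAATGGCGT
Gpd2-201 and Gpd2-202, downstream first exon: gacgaccgatctcagGCTGAGCAATGGCGT
Gpd2-205, short transcript: tctgtctaggttggaGCTGAGCAATGGCGT
The annotated coding sequence is 2181 bases long in both Gpd2-201 and Gpd2-207, so the choice between their first exons leaves the coding length the same. In Gpd2-202 it is 2235 bases long.

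In the table made from alignments, Gpd2-201 held 65.5 TPM in replicate 1 and 44.8 in replicate 2, and Gpd2-207 was listed at 0 in both. In the table made directly from reads, Gpd2-207 held 23.3 and 24.2 TPM and Gpd2-201 held 55.0 and 30.4. The coding transcript Gpd2-202 also went from 0 in the alignment table to 15.8 and 7.11 TPM. The upstream first exon of Gpd2-207 was thus given reads as a full coding transcript in 1 of the 2 tables, although Gpd2-204, which shares its join, had 8.79 and 6.29 TPM in the alignment table. Gpd2-205, a processed transcript of 620 bases, 550 of them shared with Gpd2-201, took 57.1 and 39.6 TPM from only 908 and 665 counts. With all reads of the gene put on Gpd2-201, an alternative chosen after the data were seen, Gpd2 stood at 74.2 and 50.9 TPM rather than 131 and 91.7.

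The cytosolic enzyme was the more abundant of the pair. Gpd1 made up 69.2% of the summed Gpd1 and Gpd2 TPM in replicate 1 and 70.9% in replicate 2, which is 2.25 and 2.43 times the Gpd2 level. With each gene on its principal coding transcript the shares were 79.8% and 81.3%. The related gene Gpd1l, a Gpd1 paralog known for its effect on the cardiac sodium channel, stood at 6.63 and 7.27 TPM. Gpd1 therefore held 97.8% of the summed Gpd1 and Gpd1l TPM in replicate 1 and 96.8% in replicate 2. Gk, glycerol kinase, another route to glycerol phosphate, was at 0.40 and 0.97 TPM.

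The enzymes of the malate-aspartate shuttle were higher in replicate 2, and the cytosolic pair most. Mdh1 (ENSMUSG00000020321.15, chr11:21556787-21572367, minus strand), cytosolic malate dehydrogenase, makes malate from oxaloacetate and NADH. It stood at 128 TPM in replicate 1 and 256 in replicate 2, from 5143 and 11054 counts, with a mean of 192 ± 90.9 TPM (SD, n = 2). Its scaled count was 2.05-fold higher in replicate 2 (1.98 to 2.12). This lay at the edge of the 2-fold line: scaled on library size alone, the log2 ratio was 0.99.

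Its mitochondrial partner Mdh2, which oxidises malate back to oxaloacetate, was the more abundant of the pair, at 325 TPM in replicate 1 and 423 in replicate 2, a log2 ratio of 0.38. The Mdh1 share of the pair's TPM was 28.2% in replicate 1 and 37.7% in replicate 2. By counts the shares were 29.6% (95% Wilson interval 28.9 to 30.3) and 39.9% (39.3 to 40.4), so the libraries differed by more than counting error. Of the Mdh1 level, 69.9 and 144 TPM lay on the full coding transcript Mdh1-201 and 45.6 and 100.3 on Mdh1-202, a fragment of 549 bases with 497 of them in Mdh1-201. In the reads-based table Mdh1-202 took 27.0 and 38.8 TPM. With all reads on Mdh1-201, the gene stood at 83.3 and 169 TPM.

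Got1 (ENSMUSG00000025190.13, chr19:43499752-43524605, minus strand), the cytosolic aspartate aminotransferase, turns returning aspartate into oxaloacetate. It stood at 64.8 TPM in replicate 1 and 165 in replicate 2, from 3581 and 9622 counts, with a mean of 115 ± 70.6 TPM (SD, n = 2). Its scaled count was 2.56-fold higher in replicate 2 (2.47 to 2.66), the widest gap of the 7 abundant shuttle genes. Got1-201, the only annotated coding transcript, held 83.1% and 83.7% of its TPM. A shorter transcript annotated for nonsense-mediated decay, Got1-204, held 12.0% and 11.2%.

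The stretch before the Got1 start is shown because Got1 differed most between the libraries among those 7 and because the stretch carries repeated CCAAT boxes. It is chr19:43524606-43524855 of GRCm38.p6, read on the minus strand from the RefSeq promoter table. Capitals mark the 5 CCAAT boxes, written CCAAT on the printed strand and ATTGG where the box is on the other strand.
Got1 upstream: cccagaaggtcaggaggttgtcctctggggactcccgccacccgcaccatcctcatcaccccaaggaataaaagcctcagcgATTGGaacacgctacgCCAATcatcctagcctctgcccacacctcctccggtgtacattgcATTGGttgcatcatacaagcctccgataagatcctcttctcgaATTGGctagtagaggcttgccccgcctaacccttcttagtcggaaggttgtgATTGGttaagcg
The RefSeq table gives a window of 300 bases for each start, 250 before it and 50 after. The Got1 window held 6 CCAAT matches on either strand, and 26 of 32851 windows (0.0791%) held as many or more. At least 1 match was in 37.4% of all windows and in 4 of the 8 windows of the shuttle genes: those of Got1, Mdh1, Slc25a11 and Slc25a13.

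The same windows were searched on both strands for 3 other motifs of factors known from mitochondrial genes. TNAAGGTCA, the element of oestrogen-related receptors, was in 1.28% of all windows, CCGGAAG, an ETS site, in 8.86%, and the NRF1 site, GCGC and TGCGC with any 1 base between them, in 4.60%. Each was in 0 of the 8 windows, which cover 7 of the 8 genes, 2 of the windows being for Gpd2. These are matches of letters in 1 window and say nothing of binding. CCAAT was searched after the Got1 sequence had been seen.

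Got2 (ENSMUSG00000031672.8, chr8:95864134-95888547, minus strand), the mitochondrial aminotransferase, stood at 99.7 TPM in replicate 1 and 171 in replicate 2, from 7397 and 13355 counts. Its mean was 136 ± 50.7 TPM (SD, n = 2). Its scaled count was 1.72-fold higher in replicate 2 (1.67 to 1.77). A processed pseudogene, Got2-ps1 on chr5:138364260-138365552, was given 993 and 1451 counts, and reads shared with it are divided by estimation. In the reads-based table Got2-ps1 was given 491 and 756 counts, so the division of reads differed between the tables. The posterior SD of the Got2 count was 20.4 and 24.7, small beside its total, and does not cover this difference. For the other 7 genes this SD was listed at 0.

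The Got1 share of the summed Got1 and Got2 TPM was 39.4% in replicate 1 and 49.0% in replicate 2. By counts it was 32.6% (95% Wilson interval 31.7 to 33.5) and 41.9% (41.2 to 42.5). For both enzyme pairs, then, the cytosolic member took a larger share in replicate 2. With 1 library on each side this describes the libraries only.

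The 2 abundant carriers differed less between the libraries than Mdh1, Got1 and Got2. This did not hold beside the enzyme Mdh2, whose log2 ratio of 0.38 lay between Slc25a12 at 0.32 and Slc25a11 at 0.43. Slc25a11 (ENSMUSG00000014606.14, chr11:70644196-70647479, minus strand), the carrier that exchanges malate for 2-oxoglutarate, stood at 90.7 TPM in replicate 1 and 121 in replicate 2, from 4316 and 6112 counts. Its mean was 106 ± 21.3 TPM (SD, n = 2), and its scaled count was 1.35-fold higher in replicate 2 (1.30 to 1.40). Its transcript Slc25a11-201 held 94.8% and 95.9% of the gene in the alignment table. In the reads-based table a fragment of 416 bases, Slc25a11-203, took 54.1 and 33.7 TPM from 152 and 106 counts, and the gene stood at 187 and 205 TPM.

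Slc25a12 (ENSMUSG00000027010.16, chr2:71271063-71367749, minus strand) encodes aralar, the calcium-stimulated carrier that exchanges matrix aspartate for glutamate. It stood at 128 TPM in replicate 1 and 158 in replicate 2, from 10663 and 13916 counts, with a mean of 143 ± 21.1 TPM (SD, n = 2). Its scaled count was 1.24-fold higher in replicate 2 (1.21 to 1.28), the smallest gap of the 5 abundant malate-aspartate genes.

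In the alignment table, the transcript with most of the Slc25a12 TPM was not the coding one. Slc25a12-207, annotated for nonsense-mediated decay, held 92.6 and 116 TPM, or 72.3% and 73.6% of the gene. Slc25a12-206, the only annotated coding transcript, held 20.7 and 25.0 TPM, or 16.1% and 15.8%. By counts, Slc25a12-207 had 6482 and 8598 against 3945 and 5044, with a posterior SD of 87.7 and 85.5. The reads-based table also put Slc25a12-207 first, at 110.2 and 131 TPM against 35.4 and 38.6. There it held 47.0% and 49.7% of the gene's TPM, and its counts were closer to those of Slc25a12-206, at 5560 and 7430 against 5224 and 6399.

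All 2392 bases of Slc25a12-207 lie within Slc25a12-206, which has 3959 more. Slc25a12-207 lacks exon 4 (chr2:71333605-71333720, 116 bases), and its stop codon then falls in exon 5 at chr2:71324061-71324063, which leaves 261 coding bases against 2031. Its last exon is 664 bases long against 4291. The joins below are shown because they mark where the 2 transcripts part inside the coding sequence. Each has 15 bases of the upstream exon in lower case and 15 of the downstream exon in capitals, from GENCODE M21, 5′ to 3′.
Slc25a12-206, exon 3 to exon 4: tcaaaccaaggatggGTTGATCTCCTATCA
Slc25a12-206, exon 4 to exon 5: gagaggtgacatttgAAAATGTCAAGGAGA
Slc25a12-207, exon 3 to exon 5: tcaaaccaaggatggAAAATGTCAAGGAGA
The exon 3 to exon 5 join occurs in Slc25a12-207 alone of the annotated transcripts. A read that lies within the 2392 shared bases and crosses none of these joins fits both transcripts. The tables give no count per join, so how many reads crossed the skipped one is not known here. With all reads put on Slc25a12-206, the gene stood at 55.9 and 69.0 TPM rather than 128 and 158, and in the reads-based table it stood at 234 and 264.

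**Figure D2:**
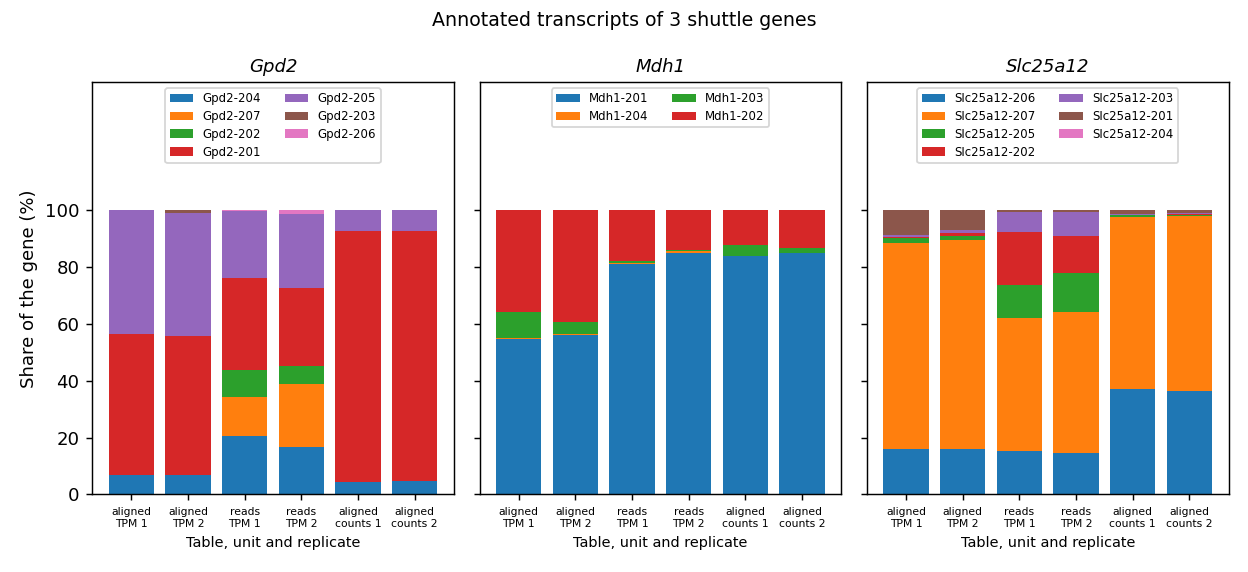
Share in percent of each annotated transcript in Gpd2, Mdh1 and Slc25a12, as stacked bars. The bars are TPM of the alignment table (aligned TPM), TPM of the reads-based table (reads TPM) and counts of the alignment table (aligned counts), each for replicates 1 and 2. Slc25a12-207 is the largest block of Slc25a12 in all 6 bars, and Gpd2-207 has a block in the reads-based bars only.

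Slc25a13 (ENSMUSG00000015112.15, chr6:6041218-6217173, minus strand) encodes citrin, the paralog of aralar known from liver. It had 4 counts in replicate 1 and 30 in replicate 2, or 0.04 and 0.33 TPM, with a mean of 0.185 ± 0.205 TPM (SD, n = 2). The ratio of replicate 2 over replicate 1 was 7.15, with a counting interval from 2.52 to 27.9. Liver markers were also low and also higher in replicate 2, with Alb, albumin, at 0.36 and 2.91 TPM, and their part in the Slc25a13 counts was not tested. Slc25a12 held 99.97% of the summed TPM of the 2 carriers in replicate 1 and 99.79% in replicate 2, so the aspartate-glutamate carrier RNA of both libraries was nearly all aralar.

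Between the libraries, 7 of the 8 genes had a mean count of at least 100 and could be set beside the 9996 genes that did. Over 2-fold either way were 2 of the 7, Mdh1 and Got1, against 3.3% of all genes. Both were higher in replicate 2, as were 2.09% of all genes, and 0 of the 7 were over 2-fold higher in replicate 1, against 1.21%. Over 1.5-fold, Got2 joined them, making 3 of 7 either way against 8.98% of all genes. All 3 were higher in replicate 2, against 5.64%, and 0 of 7 were higher in replicate 1, against 3.34%. The median log2 ratio of the 7 was 0.43, that of the 5 malate-aspartate genes among them 0.78, and that of the 2 glycerol phosphate genes -0.46. Over all 9996 genes the median was -0.01 and the median absolute log2 ratio 0.17. The number of members over 2-fold was 1 with library-size scaling, where only Got1 passed and 3.26% of all genes did. It was 3 with spike-in scaling, where Got2 passed too and 5.85% of all genes did.

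**Figure D3:**
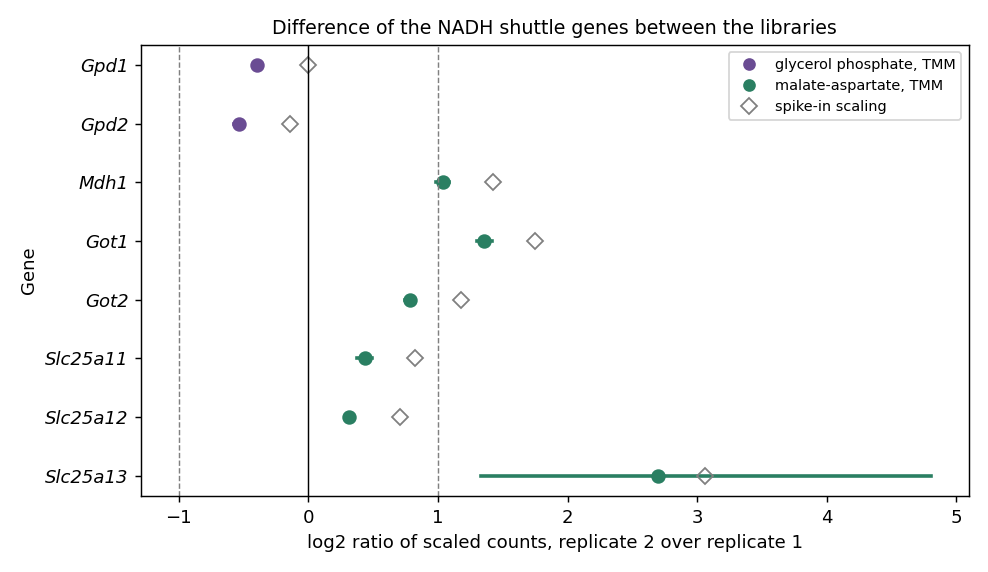
Log2 ratio of scaled counts, replicate 2 over replicate 1, for each shuttle gene. Filled circles are TMM scaling with lines for the 95% exact counting interval, open diamonds are spike-in scaling, and dashed lines mark 2-fold. The 2 glycerol phosphate genes lie at -0.40 and -0.53 and the 6 malate-aspartate genes lie above 0, from 0.32 for Slc25a12 to 2.70 for Slc25a13, whose interval is the widest.

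Summed over their genes, the malate-aspartate shuttle had 511 TPM in replicate 1 and 871 in replicate 2, and the glycerol phosphate shuttle 427 and 315. The ratio of the sums was 1.20 in replicate 1 and 2.77 in replicate 2. In the reads-based table it was 1.38 and 3.02, and with each gene on its principal coding transcript 1.05 and 2.49. With Mdh2 and Gpd1l added it was 1.93 and 4.02. The ratio was higher in replicate 2 in each of these 4 forms. The sums cover different numbers of genes, so the ratio describes RNA and not the capacity of either shuttle.

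The other genes around the shuttles were a list of 12, of which 7 were at 1 TPM or more in both libraries. Of the 9 with a mean count of at least 10, 6 were higher in replicate 2 and 3 lower, with a median log2 ratio of 0.38. Of the 6 with a mean count of at least 100, only Slc25a22 was over 2-fold higher in replicate 2 and 0 were in replicate 1. Slc25a22, a mitochondrial glutamate carrier, stood at 3.92 TPM in replicate 1 and 15.04 in replicate 2, a 4.42-fold higher scaled count. The other glutamate carrier, Slc25a18, had 2 counts and 0.

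Of the calcium-regulated ATP-Mg/phosphate carriers, Slc25a25 stood at 34.7 and 56.7 TPM, Slc25a23 at 11.2 and 19.0, and Slc25a24 at 1.19 and 0.99. The dicarboxylate carrier Slc25a10 stood at 1.37 and 1.45 TPM. Slc25a1, which exports citrate for fatty acid synthesis, went the other way, at 4.10 TPM in replicate 1 and 1.05 in replicate 2, from 139 and 53 counts. Mdh1b and Got1l1, relatives of the cytosolic enzymes, had 0 counts in both libraries, which allows up to 3 counts in each.

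The genes that make and use cytosolic NADH framed these differences. Gapdh, the glycolytic enzyme that makes it, stood at 5847 TPM in replicate 1 and 4534 in replicate 2. Ldha, the muscle lactate dehydrogenase subunit, stood at 1443 and 1146 TPM, and Ldhb, the heart-type subunit, at 2.16 and 155. Of 9 other glycolysis genes, 8 were lower in replicate 2, with a median log2 ratio of -0.27, led by Aldoa, an aldolase, at 12625 and 9152 TPM. Under spike-in scaling 8 of the 9 were higher in replicate 2 and the median was 0.12. The median over all genes was then 0.38, and a change of scaling keeps the distance between these medians by construction. All 14 citric acid cycle genes were higher in replicate 2. Their median log2 ratio was 0.39, and 0 were over 2-fold.

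Against those lists, Gpd1 at -0.40 lay at the lower end of the glycolysis genes, which ran from -0.40 to 0.56, and Gpd2 at -0.53 lay below it. Slc25a12 at 0.32 and Slc25a11 at 0.43 lay within the range of the citric acid cycle genes, 0.17 to 0.77. Mdh1 at 1.04 and Got1 at 1.36 lay above that range. Got2 at 0.78 lay at its upper edge, with a counting interval that overlapped that of the highest citric acid cycle gene.

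Markers of fibre type and of some other cells also differed between the libraries. All 9 slow fibre markers were over 2-fold higher in replicate 2, with a median log2 ratio of 8.94. Myh7, the slow myosin heavy chain, was at 0.24 TPM in replicate 1 and 472 in replicate 2. All 8 fast fibre markers were lower in replicate 2. Their median log2 ratio was -0.48 and their summed level 98255 and 70860 TPM. Under spike-in scaling 3 of the 8 were higher in replicate 2 and the median was -0.09. The part of the fibre types in the differences of the shuttle genes was not tested.

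All 8 fat cell markers were lower in replicate 2, 6 of the 7 with a mean count of at least 100 by over 2-fold, and their summed level was 371 and 114 TPM. Adipoq, adiponectin, stood at 21.5 and 2.21 TPM. Gpd1 is also abundant in fat cells, and their part in the Gpd1 and Gpd2 levels was not tested. The brown fat marker Ucp1 had 0 counts in both libraries. All 5 red blood cell markers, summing to 2445 and 425 TPM, and all 4 Schwann cell markers, summing to 93.8 and 23.1 TPM, were also lower in replicate 2. The endothelial markers had a median log2 ratio of 0.12 and 0 of 3 over 2-fold. Pecam1 and Cdh5 lay at 0.05 and 0.12, but Kdr at 0.95 was just under 2-fold higher in replicate 2. The fibroblast markers differed little, with a median log2 ratio of -0.14 and 0 of 3 over 2-fold. The heart markers summed to 2.52 and 1.48 TPM, with Nppb at 0 counts in both.

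**Figure D4:**
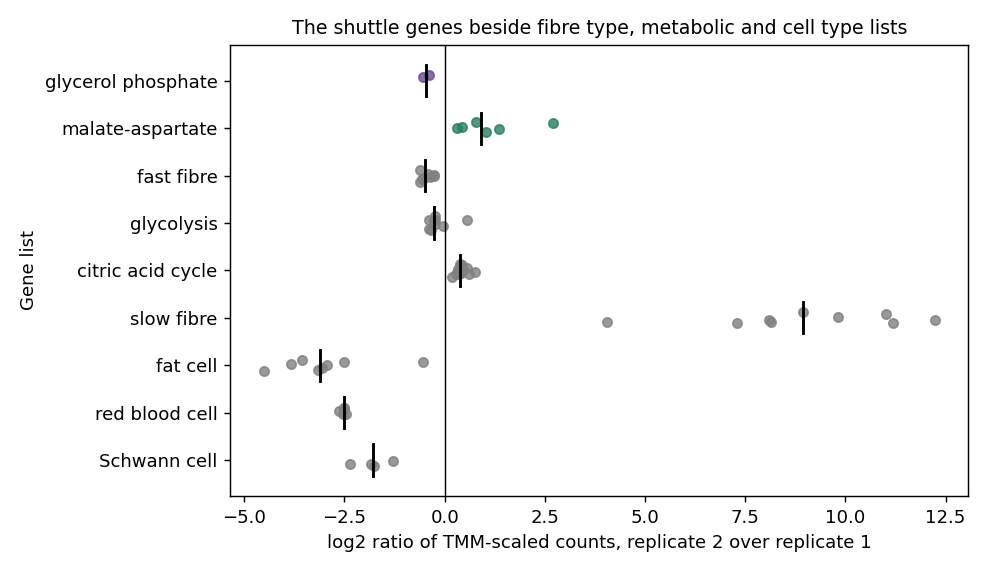
Log2 ratio of TMM-scaled counts, replicate 2 over replicate 1, of the genes of each list, 1 point a gene with a black line at the median. Points are spread vertically at random for visibility, and genes with a mean count below 10 are left out. The glycerol phosphate genes lie on the side of the fast fibre list (median -0.48), and the malate-aspartate genes lie on the side of the citric acid cycle (0.39) and slow fibre (8.94) lists.

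For each gene, the nearest pair of levels was sought among protein-coding genes whose counts averaged 100 or more, by the larger of the 2 differences in log2 TPM. The nearest to Slc25a12 was Mfn2, a mitofusin, at 129 and 159 TPM, within 0.02. The nearest to Slc25a11 was Pdhb, a pyruvate dehydrogenase subunit, within 0.04, and to Gpd1 it was Ank1, an ankyrin, within 0.04. Fabp4, a fatty acid binding protein of fat cells, lay within 0.05 of Gpd2. The log2 ratio of Fabp4, -0.55, was the smallest drop among the 8 fat cell markers, whose median was -3.12. Hadhb, of mitochondrial fatty acid oxidation, lay within 0.12 of Got2, Acadvl, of the same pathway, within 0.14 of Got1, and Cyc1, cytochrome c1, within 0.21 of Mdh1. Slc25a13 lies below that minimum, and the nearest gene above it, Top2a, was 2.70 away, so no like gene is named for it. Over 2 libraries such pairs are a description of level only.

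Genes that overlap the 8 on the other strand carried fewer reads than the shuttle genes themselves. Gm16537, antisense to Gpd1, had 1 and 2 counts, A930012O16Rik at Gpd2 had 5 and 8, and Wdpcp at Mdh1 had 48 and 81. Rnf167, which overlaps Slc25a11-204 but not the main transcript Slc25a11-201, had 632 and 719. Got1 and Slc25a13 overlap no annotated gene.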

How the data were processed

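Total RNA of gastrocnemius was measured in 2 libraries of 1 group, with replicate numbers from the labels. For each library the authors deposited gene and transcript tables based on transcriptome alignments, and another transcript table made directly from the reads. The expected counts (estimated counts in the reads-based table) and TPM are as deposited, and TPM includes spike-ins, 7SL and mitochondrial genes in its total. The posterior SD of a count, per the file headers, served as a score for the certainty of read assignment. Per the labels and the deposited descriptions, mm10 and GENCODE M21 were used. The program that made the tables is not given in the sources used here. The labels describe the spike-in profile as one for stranded libraries, and whether counting used strand was not stated. The hybrid mice carry alleles of another subspecies, whose effect on alignment to mm10 was not tested. In total, 26248 tRNA rows, with 3 counts and 0, were left out.

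The rule for the members uses no measured value, but they and the gene lists were chosen with earlier results of these data known. Ratios are from rounded counts scaled by TMM (edgeR 4.0.16, R 4.3.3) with a prior count of 0.5, and folds with their intervals have no prior count. DESeq2 1.42.0 gave alternative size factors. The scaling was tested on simulated data. Intervals are exact (Clopper-Pearson) for ratios and Wilson for shares, at 95%, and cover counting error only. These reads carry no molecular identifiers, so copies of 1 molecule are counted as separate reads and the intervals may be too narrow. Named genes are all 8 members, the related shuttle genes, Gapdh, Ldha and Ldhb, up to 2 of the highest genes of the other pathway lists, up to 4 genes of each marker list, and the gene nearest in level to each member. For 1 named gene no values are reported here. Got2-ps1, Rnf167 and the other overlapping genes were added for their overlap or shared reads. Python 3.11.15 was used with pandas 2.3.3, numpy 2.4.6, matplotlib 3.10.9 and scipy 1.17.1. Sequences are from GENCODE M21 transcripts and, for the windows at gene starts, from RefSeq on GRCm38.p6, which had windows for 7 of the 8 genes. The alternatives were other scalings, filters, units, the reads-based table, the principal transcript length and each library left out.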

Additional observations from a re-analysis of the deposited data

How the results depend on the processing

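No paired analysis was possible because there is 1 group. No log2 ratio of a shuttle gene changed sign in any of 48 alternatives (other scalings, the reads-based counts and another prior count), though 11 lay outside the counting interval of the main ratio. With spike-in scaling the log2 ratio of Gpd1 went from -0.40 to -0.005, so its unchanged sign says little. Of 24 alternative TPM values (the reads-based table, a rescaled total and the principal transcript length), 13 moved by more than the SD between libraries. The members over 2-fold numbered 2 in the main analysis and 1 with library size scaling. The 330 genes over 2-fold became 1159 at a mean count of at least 10, 103 at 1000, 6718 with no filter and 585 with spike-in scaling. The mean Slc25a12 share of the carrier pair went from 99.88% to 99.73% with principal transcript length. The mean Gpd1 share beside Gpd1l went from 97.3% to 96.3% by counts. Beside Gpd2 it went from 70.04% to 72.3% in the reads-based table, 67.4% by counts and 80.5% with principal transcript length. The mean Mdh1 share beside Mdh2 went from 32.96% to 26.1% in the reads-based table. The mean Got1 share beside Got2 went from 44.2% to 37.2% by counts. The causes were not tested, apart from the principal transcript length and the rescaled total. These change the length or the total behind a level by construction. Leaving out either library gives the value of the other, and a mean of 2 values lies within 1 SD of both, so this says nothing of stability. Depth limits Slc25a13 most, with 4 and 30 counts.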
